A study of Mus musculus with 2 samples.

Results

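The genes for the chains of collagens III, V, VI and XII were examined for RUNX2 peaks. They are 8 of the 21887 protein-coding genes of the annotation, chosen by name: Col3a1, Col5a1, Col5a2, Col5a3, Col6a1, Col6a2, Col6a3 and Col12a1. The series holds 2 replicate CUT&Tag libraries of 1 group, untreated MC3T3-E1 cells, a mouse line of osteoblast precursors. They were made with an antibody against the osteoblast transcription factor RUNX2. In CUT&Tag the antibody brings the transposase Tn5 to the protein's sites on chromatin, where it cuts the DNA and adds sequencing adapters. There was no control library and no other condition, and nothing in the labels tells if separate cultures were used, so the spread between replicates may be technical. The deposited lists give the position and width of 26853 peaks in replicate 1 and 27287 in replicate 2, with no height, so the read depth is unknown.

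Collagens are triple helices of 3 alpha chains that form the fibres and meshes of the extracellular matrix. Collagen III, a homotrimer of the Col3a1 product, and collagen V, built from the Col5a1, Col5a2 and Col5a3 products, are fibrillar collagens. They assemble together with collagen I, and collagen V is known to start its fibrils and limit their thickness. Collagen VI, assembled from the Col6a1, Col6a2 and Col6a3 products, forms beaded filaments around cells. Collagen XII, a homotrimer of the Col12a1 product, is a fibril-associated collagen that lies on the surface of collagen I fibrils. All are made by osteoblasts and by other cells of connective tissue, and the peaks say nothing of how strongly they were expressed here.

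RUNX2 peaks overlapped the promoters of Col5a1, Col6a1 and Col6a2 in both replicates, and that of Col5a3 in replicate 1 only. The promoters of Col3a1 and Col6a3 had none in either replicate. The RefSeq promoter table (GRCm38.p6) matched 6 of the 8 genes, and its entries reach from 250 bases before a start to 50 bases after it; Col5a2 and Col12a1 were not among them. The 250 bases before the start are shown for the 3 genes with a peak of both replicates and, for contrast, for Col3a1. Each runs 5′ to 3′ on the strand of the gene, and capitals mark the bases covered by a peak in both replicates.
Col5a1, chr2:27886175-27886424, plus strand: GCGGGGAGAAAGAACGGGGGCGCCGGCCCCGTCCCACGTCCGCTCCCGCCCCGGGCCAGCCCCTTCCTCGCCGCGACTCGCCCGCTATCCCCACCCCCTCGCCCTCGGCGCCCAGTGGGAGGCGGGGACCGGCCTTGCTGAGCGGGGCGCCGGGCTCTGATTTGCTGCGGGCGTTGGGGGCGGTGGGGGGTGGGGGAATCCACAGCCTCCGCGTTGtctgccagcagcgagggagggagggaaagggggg
Col6a1, chr10:76726045-76726294, minus strand: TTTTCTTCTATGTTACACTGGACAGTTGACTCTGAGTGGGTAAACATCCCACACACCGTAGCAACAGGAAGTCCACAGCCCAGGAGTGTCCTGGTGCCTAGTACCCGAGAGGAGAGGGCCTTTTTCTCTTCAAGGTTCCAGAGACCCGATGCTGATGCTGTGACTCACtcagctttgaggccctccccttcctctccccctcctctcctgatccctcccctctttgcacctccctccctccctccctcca
Col6a2, chr10:76623405-76623654, minus strand: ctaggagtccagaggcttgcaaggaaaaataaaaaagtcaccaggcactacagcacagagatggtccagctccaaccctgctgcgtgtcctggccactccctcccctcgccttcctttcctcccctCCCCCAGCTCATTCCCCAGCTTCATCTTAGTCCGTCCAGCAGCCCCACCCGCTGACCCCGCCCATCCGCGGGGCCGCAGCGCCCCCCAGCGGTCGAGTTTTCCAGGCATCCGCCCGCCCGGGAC
Col3a1, chr1:45311288-45311537, plus strand: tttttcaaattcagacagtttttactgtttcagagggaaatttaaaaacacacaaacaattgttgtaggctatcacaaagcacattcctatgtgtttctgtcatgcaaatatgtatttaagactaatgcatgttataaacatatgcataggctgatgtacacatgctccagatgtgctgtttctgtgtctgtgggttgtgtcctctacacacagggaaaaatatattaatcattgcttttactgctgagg

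The sequences differed in base composition. Over the whole 300-base entry, GC content was 75% for Col5a1, with 34 CpG dinucleotides, 64.3% for the Col6a2 start shown, with 16, 57.3% for Col6a1, with 3, and 37.7% for Col3a1, with 0. The entry of Col5a3 was at 63.3% and that of Col6a3 at 56.3%. Col6a2 has another listed start 226 bases farther upstream, whose entry (56.7% GC) was overlapped by a peak of replicate 1 only. The median of all 32851 promoters in the table was 52.7%. Across that table the share of promoters overlapped by a peak of both replicates, 21.5% in all, moved with GC content: it was 0.6% (95% Wilson interval 0.4 to 0.9) below 40% GC, the class of Col3a1, 22.4% (21.6 to 23.3) from 50 to 60%, the class of Col6a1 and Col6a3, 48.4% (47.2 to 49.6) from 60 to 70%, and 35.6% (33.9 to 37.3) at 70% and above, the class of Col5a1. The part of base composition in the peaks of these genes was not tested.

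**Figure D1:**
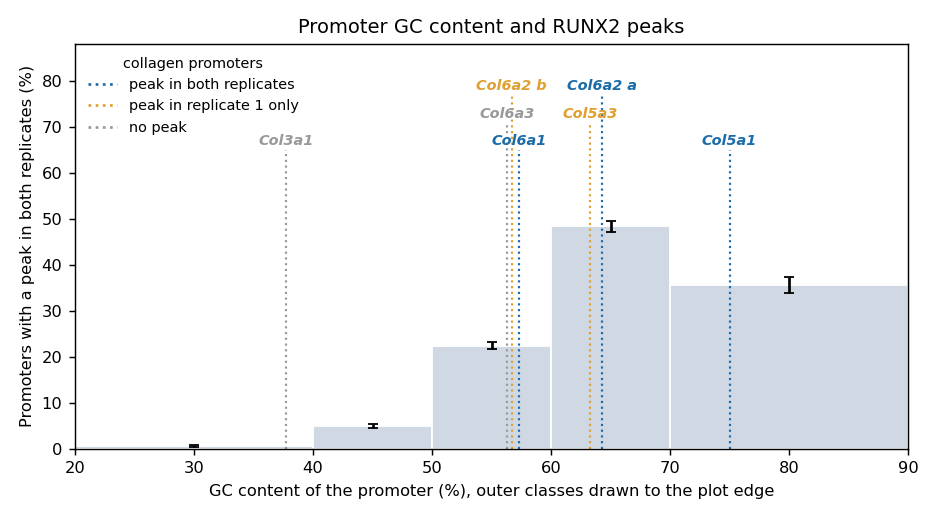
Share of all promoters of the RefSeq table with a peak in both replicates (vertical axis, %; bars, with 95% Wilson intervals) by GC content of the 300-base promoter (horizontal axis, %), with the 7 promoters of 6 collagen genes as dotted lines at their GC content (Col6a2 a is the start shown in the text, b the upstream one). Col3a1, at 37.7% GC, lies in the class with 0.6% and has no peak, and Col5a1, at 75%, lies in the class with 35.6% and has a peak in both replicates.

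Short motifs differed between the promoters as well. Neither TGTGGT nor TGCGGT, the letters of the RUNX core motif, was found on either strand in any of the 7 entries of these genes. Of all promoters 16.8% and 6.45% hold them. Among promoters overlapped by a peak of both replicates the shares were 12.5% and 11.6%. Among those overlapped by neither they were 18.4% and 4.76%. The AP-1 motif TGANTCA, which reads the same on both strands, was found once, in Col6a1. It was TGACTCA, starting 90 bases before the start and within the stretch covered by both replicates. Of all promoters 7.81% hold this motif, with 5.03% of those overlapped by a peak of both replicates and 8.75% of those overlapped by neither. The GC box GGGCGG (either strand) had 2 matches in Col5a1 and 3 in the Col6a2 sequence shown, of which a pair overlap, all within the covered stretch. Another 3 matches were in Col5a3 and 1 in the upstream entry of Col6a2. Of all promoters 35.7% hold this motif, with 70.1% of those overlapped by a peak of both replicates and 22.9% of those overlapped by neither. No 2 of the different motifs overlapped. TGCGGT and GGGCGG were added after the promoters had been seen. A match describes the letters of this window only.

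In a wider window, every one of the 8 genes had at least 1 peak region found in both replicates, but the number ranged from 1 to 11. The window was the gene with 100 kb on either side. A region was called shared where peaks of the 2 lists overlapped by at least 1 bp. Col5a1 had 11 shared regions, Col6a3 had 10, Col6a1 and Col6a2 had 8 each, Col5a3 had 7, Col12a1 had 5, Col5a2 had 2 and Col3a1 had 1. The median was 7.5, against 3 over all protein-coding genes, and 77.7% of all protein-coding genes had at least 1, so the presence of a region is no feature of these genes. Per 100 kb of window, which takes account of gene length, the median was 2.99 against 1.14. The windows are not independent, because Col6a1 and Col6a2 share 6 of their 8 regions and Col3a1 and Col5a2 share 1.

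**Figure D2:**
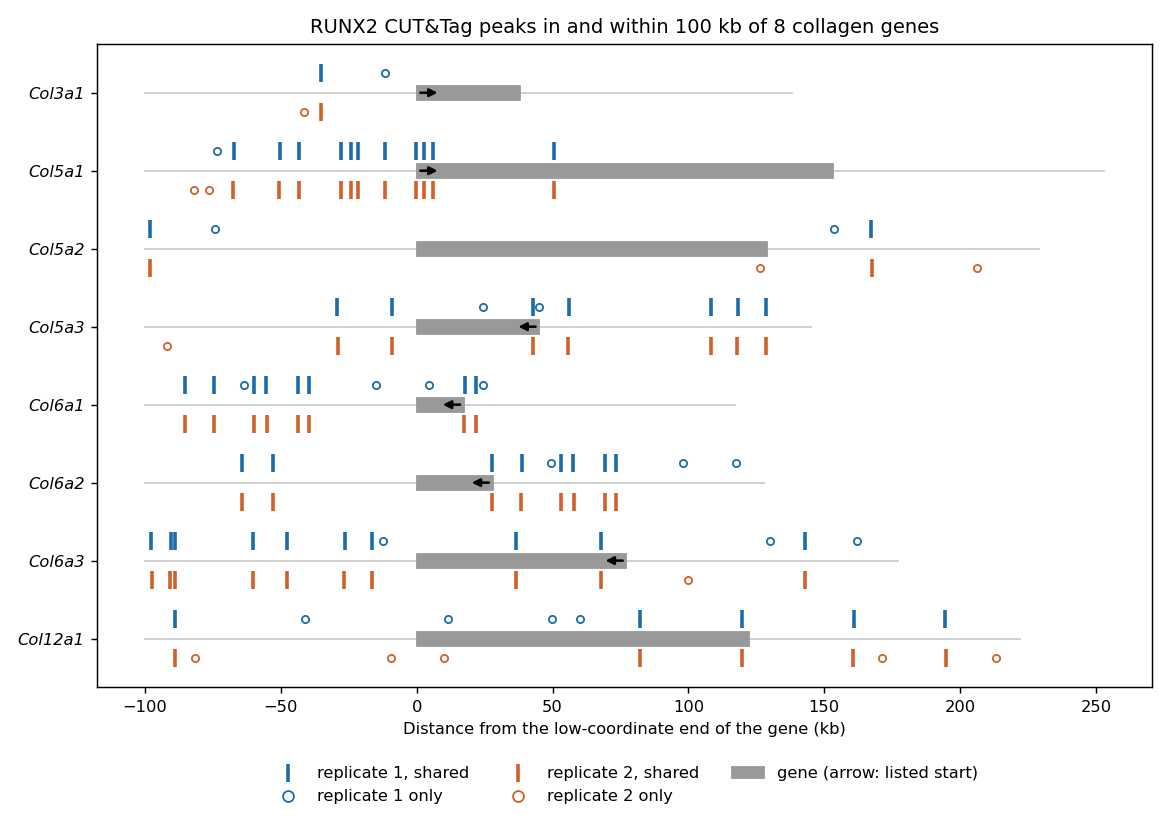
Peaks of replicate 1 (above each line) and replicate 2 (below it) in the windows of the 8 genes; the horizontal axis is the distance from the low-coordinate end of the gene in kb, bars mark shared peaks, open circles peaks of a single replicate, grey boxes the genes and arrows the listed transcript starts. Col5a1 has 10 shared regions along 73.8 kb around its start, and Col3a1 has 1, 35.2 kb upstream.

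Joined into 6 stretches of the genome, the windows held 45 shared regions, 16 peaks of replicate 1 only and 12 of replicate 2 only. In replicate 1, 45 of 61 peaks there (73.8%, 95% Wilson interval 61.6 to 83.2) were overlapped by a peak of replicate 2, and 68.2% (67.7 to 68.8) outside the windows. In replicate 2 it was 45 of 57 (78.9%, 66.7 to 87.5), and 67.1% (66.6 to 67.7) outside. Both intervals include the share outside, and they cover counting error only. Most shared regions of the windows lay away from gene ends. An annotated gene of any type ended or began within 1 kb of 9 of the 45 (20%, 95% Wilson interval 10.9 to 33.8), against 38.3% of all 18133 shared regions. Of the 45, 9 lay inside 1 of the 8 genes and 36 outside them. By protein-coding gene ends, 31 lay closest to 1 of the 8 collagens and 14 to some other gene.

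**Figure D3:**
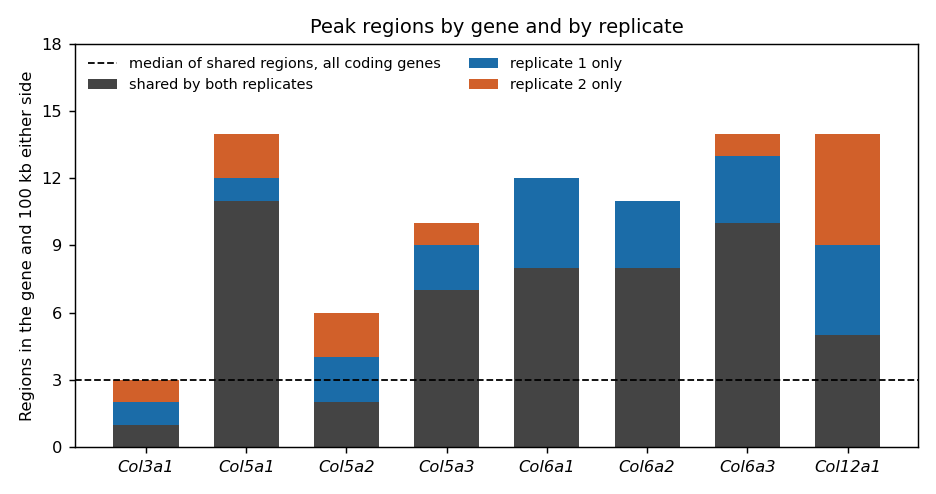
Number of peak regions in each gene and 100 kb on either side (vertical axis), split into those shared by both replicates, those of replicate 1 only and those of replicate 2 only; the dashed line is the median number of shared regions over all protein-coding genes, 3. Col3a1 and Col5a2 lie below the line with 1 and 2 shared regions and the 6 other genes above it, from 5 to 11.

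Among the fibrillar genes, Col5a1 carried the longest series of regions. The gene lies on chromosome 2 from 27886381 to 28039510, on the plus strand, and its window held 12 peaks in replicate 1 and 13 in replicate 2 (12.5 ± 0.71, SD, n = 2). The shared region at its promoter, from 27885883 to 27886465, measured 410 bp in replicate 1 and 583 bp in replicate 2. It was 1 of 10 that lay no more than 20 kb apart, a spacing chosen after the positions were seen, from 27818664 to 27892472. The 7 others upstream were 11.6, 21.6, 24.2, 27.8, 43.5, 50.4 and 67.5 kb from the start, and 2 more lay 2.7 and 5.9 kb inside the gene. This order places most of the regions before the gene and few in it.

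The widest region of all 8 windows was part of this series. It lay 50.4 kb upstream of Col5a1, from 27834947 to 27836560. Its peak was 1033 bp wide in replicate 1, wider than 95.5% of all shared regions, and 1472 bp in replicate 2, wider than 99.5%. It was the 1 region of the 45 with a peak of 1000 bp or more in both replicates. The region lay inside the long noncoding RNA gene Gm39777, 2.4 kb from the nearer end of that gene. Col5a1 was the nearest protein-coding gene. The 11th shared region lay 50.4 kb inside the gene, and from there to 100 kb beyond the gene's far end, over 202.4 kb, neither replicate had a peak.

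Col5a3, which encodes the alpha 3 chain of collagen V, lies in a stretch crowded with genes (chromosome 9, 20770050 to 20815117, minus strand). Its window held 9 peaks in replicate 1 and 8 in replicate 2, and 7 other protein-coding genes. Of its 7 shared regions, Col5a3 was the nearest protein-coding gene of 2. The first, 2.2 kb inside the gene from the start (20812395 to 20813166), measured 619 bp in replicate 1 and 648 bp in replicate 2. The second lay 9.1 kb beyond the far end, with 393 and 398 bp. The others were nearest to Olfm2, Rdh8, Angptl6, Ppan and Eif3g, and those of Ppan and Eif3g, genes of ribosome assembly and of translation initiation, lay 10 and 55 bp from a gene end. At the start of Col5a3 itself replicate 1 had a peak of 467 bp, from 20814796 to 20815262, and replicate 2 had none.

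Col3a1 and Col5a2, neighbours on chromosome 1, had the fewest regions. Col3a1 (45311538 to 45349706, plus strand) had 2 peaks in each replicate and Col5a2 (45374331 to 45503282) had 4 in each. Neither gene held a shared region within its span or within 10 kb of it, and no peak of either replicate lay in the 24.6 kb between them. From 45299986 to 45500583, over 200.6 kb that hold all of Col3a1 and nearly all of Col5a2, both lists were empty. The shared region of Col3a1 lay 35.2 kb upstream of its start, from 45275969 to 45276398. It was narrow, with 217 bp in replicate 1 and 272 bp in replicate 2, which is wider than 7.4% and 14.8% of all shared regions. The other shared region of the Col5a2 window lay 38.2 kb above the gene's high end, from 45541318 to 45541929, with 243 and 435 bp. The peaks inside or nearest to Col5a2 were found in a single replicate: 352 bp in replicate 2, 2.5 kb inside the high end, and 284 bp in replicate 1, 24.5 kb beyond it. The lists hold called peaks only, and signal below the calling limit is not seen in them.

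Col6a1, Col6a2 and Col6a3 had 3.68, 3.51 and 3.61 shared regions per 100 kb, of which those of Col6a1 and Col6a2 rest largely on the same regions. These are above those of 93.3%, 92.7% and 93.0% of all protein-coding genes. The other collagen VI genes of the annotation, Col6a4, Col6a5 and Col6a6, were lower, at 0.33, 0.65 and 0.59, and are named here after their values were seen. They are close neighbours on chromosome 9 with overlapping windows, so their values are not independent either. Col6a2 (76595756 to 76623630) and Col6a1 (76708792 to 76726044) follow each other on the minus strand of chromosome 10 with 85.2 kb between them. Replicate 1 had 12 peaks in the Col6a1 window and 11 in that of Col6a2, and replicate 2 had 8 in each. Replicate 2 had no peak there without a partner in replicate 1. Col6a1 was the nearest protein-coding gene of 3 of the 8 shared regions of its window, and Col6a2 of 5 of its 8. All 8 regions of the Col6a1 window were nearest to Col6a1 or Col6a2. The 2 regions below the low end of Col6a2 were nearest to Lss, 20 bp and 11.2 kb from an end of that gene.

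Both collagen VI genes on chromosome 10 had a shared region at the promoter. At Col6a2 it covered the start shown above in both replicates: the shared region from 76623326 to 76623648 measured 323 bp in replicate 1 and 203 bp in replicate 2, and 23.0% and 5.3% of all shared regions were narrower. At Col6a1 the region from 76726120 to 76726595 lay upstream of the start, which neither replicate's peak reached, and measured 469 bp in replicate 1 and 316 bp in replicate 2. A second, with 185 and 418 bp, lay 4.5 kb upstream of Col6a1. No shared region lay inside Col6a1.

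The stretch between Col6a2 and Col6a1 held 5 shared regions. They lay 10.7, 25.3, 29.8, 41.3 and 45.5 kb upstream of the Col6a2 start. The pair at the ends were the widest, with 524 bp in replicate 1 and 818 bp in replicate 2 for the first and 661 and 876 bp for the last. The long noncoding RNA genes Gm51774 and Gm35608 lie in the same stretch. An end of Gm51774 was the nearest annotated gene end of 4 of the 5, at 1.1 to 12.6 kb. The region 25.3 kb upstream lay between the ends of Gm51774, so inside that gene. With the region at the Col6a2 start they formed a series of 6 within 46.2 kb.

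Col6a3, which encodes the longest chain of collagen VI, lies on another chromosome (chromosome 1, 90766860 to 90844001, minus strand). Its window held 13 peaks in replicate 1 and 11 in replicate 2, with 10 shared regions. Of these, 7 lay beyond the end of the gene and none within 1 kb of the start. The region nearest to the start was 9.2 kb inside the gene, from 90834344 to 90835116, with 688 bp in replicate 1 and 773 bp in replicate 2. Another lay 40.5 kb inside, with 386 and 228 bp. Beyond the low end, where the gene ends, the 7 lay at 16.5, 26.4, 47.8, 60.2, 89.0, 90.6 and 97.7 kb. The one at 26.4 kb, from 90739601 to 90740997, measured 992 bp in replicate 1 and 1050 bp in replicate 2, wider than 94.5% and 95.6% of all shared regions. The last 3 were nearer to Cops8 than to Col6a3, and the region 65.8 kb upstream of the start had Mlph, the melanophilin gene, as its nearest protein-coding gene.

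Col12a1, the collagen XII gene (chromosome 9, 79598987 to 79721141), had the most single-replicate peaks of the 8 genes, 4 in replicate 1 and 5 in replicate 2. Replicate 1 had 9 peaks in its window and replicate 2 had 10, and 5 regions were shared. Inside the gene lay 2 of them. One, from 79718488 to 79718980, 2.4 kb from the high end, measured 432 bp in replicate 1 and 469 bp in replicate 2. The other, 39990 bp from that end, had 423 and 692 bp. Another 3 peaks of replicate 1 and 1 of replicate 2 inside the gene had no partner. Of the 3 shared regions outside, the widest in replicate 1 (898 bp, and 508 bp in replicate 2) was nearest to the cytochrome oxidase gene Cox7a2, and the widest in replicate 2 (692 bp, and 293 bp in replicate 1) lay 130 bp from an end of Tmem30a. Its 1.55 shared regions per 100 kb were above those of 62.4% of protein-coding genes.

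**Figure D4:**
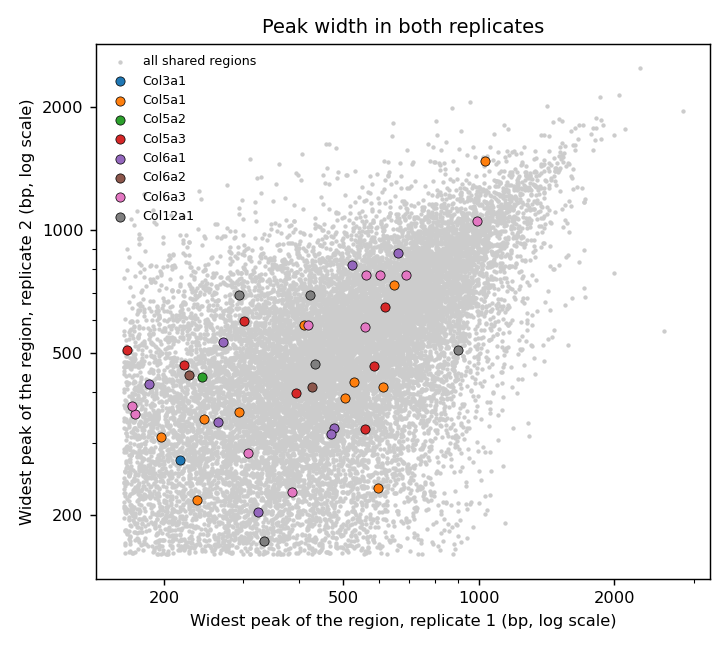
Width of the widest peak of each shared region in replicate 1 (horizontal axis, bp, log scale) and replicate 2 (vertical axis, bp, log scale), for all shared regions (grey) and the 45 in the windows (coloured by gene; a region of 2 windows takes the gene listed first). The regions upstream of Col5a1 (1033 and 1472 bp) and beyond Col6a3 (992 and 1050 bp) lie at the upper right, and the region of Col3a1 (217 and 272 bp) at the lower left.

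Peak width ranged widely among the 45 regions. It ran from 166 to 1033 bp in replicate 1, with a median of 417 bp, and from 173 to 1472 bp in replicate 2, with a median of 435 bp. Over all shared regions the medians were 492 and 497 bp. Single-replicate peaks in the windows had a median of 274.5 bp and reached 648 bp, in replicate 2, 9.4 kb below the low end of Col12a1. Measured from the gene to the nearer edge of the region, as the windows were, the 100 kb limit left out a region 100.1 kb from Col5a1 (880 bp in replicate 1 and 941 bp in replicate 2) and one 101.6 kb from Col5a2 (968 and 1133 bp). By the same measure, just inside it lay the shared region 97.9 kb from Col5a2 (217 and 272 bp) and that 97.4 kb from Col6a3 (559 and 578 bp).

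Counted with the closer link of a region inside the gene or within 10 kb of it, 6 of the 8 genes were linked, all but Col3a1 and Col5a2, and 52.7% of all protein-coding genes are. Within the gene itself, 5 of 8 held a shared region (30.3% of all), with Col5a1 at 3, Col6a3 and Col12a1 at 2 each, and Col5a3 and Col6a2 at 1 each. Within 1 kb of a transcript start, or of either end where no start is listed, 3 of 8 had one (33.1% of all). With 8 genes, these counts are too few to set the group apart from all genes. Those inside the gene or within 10 kb also take no account of gene length. The 8 genes were 17.3 to 153.1 kb long, against a median of 17.2 kb over all protein-coding genes. When each region was instead assigned to the closest end of a protein-coding gene, up to 100 kb away, 8 of 8 genes had a shared region, against 44.4% of all protein-coding genes. Col3a1 and Col5a2 then each took the region described above. This assignment takes no account of how far off the neighbouring genes lie. The 8 windows held from 1 to 7 other protein-coding genes, with 1 each at Col3a1, Col5a1, Col5a2 and Col6a3.

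Over the 36 other collagen genes the median was 1.15 shared regions per 100 kb, and the range was from 0 to 4.83. Inside the gene or within 10 kb, where 52.7% of all protein-coding genes had a shared region, 24 of the 36 (66.7%) did. By class these were 6 of 7 other fibrillar genes, 7 of 9 network-forming genes, 5 of 6 genes of other beaded filament, anchoring and related collagens, 2 of 2 multiplexin genes, 3 of 8 other fibril-associated collagen genes and 1 of 4 transmembrane collagen genes. Col27a1, a fibrillar collagen gene of cartilage, had 6 such regions and Col22a1 had 5. Col24a1 and the basement membrane gene Col4a2 had 4 each, and Col15a1, Col8a2 and Col16a1 had 3 each. These counts take no account of gene length. Per 100 kb of window Col22a1, 355.2 kb long, was at 1.08, against 1.14 over all protein-coding genes. The others named here ran from 1.59 (Col16a1) to 3.52 (Col8a2). Closest in density to the median of the 8 were Col1a2 (2.97) and Col1a1 (2.77), which encode the chains of collagen I, and the cartilage collagen gene Col2a1 (3.06); this likeness rests on 1 value per gene from 2 libraries.

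Of these 36 genes none had a shared region within 1 kb of a transcript start (95% Wilson interval 0 to 9.6%, and 3 counts of 36 would be 8.33%). Of all protein-coding genes 33.1% had one. A start is listed for 29 of the 36, and either gene end replaced it for the rest. The counts were also 0 with the peaks of replicate 1 alone and 0 with those of replicate 2 alone, against 38.1% in each. Within 3 kb there were 5 of the 36 (Col4a3, Col27a1, Col16a1, Col1a2 and Col2a1), against 36.3% of all protein-coding genes. This count was added after the data had been seen, and its difference from the 3 of 8 at Col5a1, Col6a1 and Col6a2 was not tested.

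**Figure D5:**
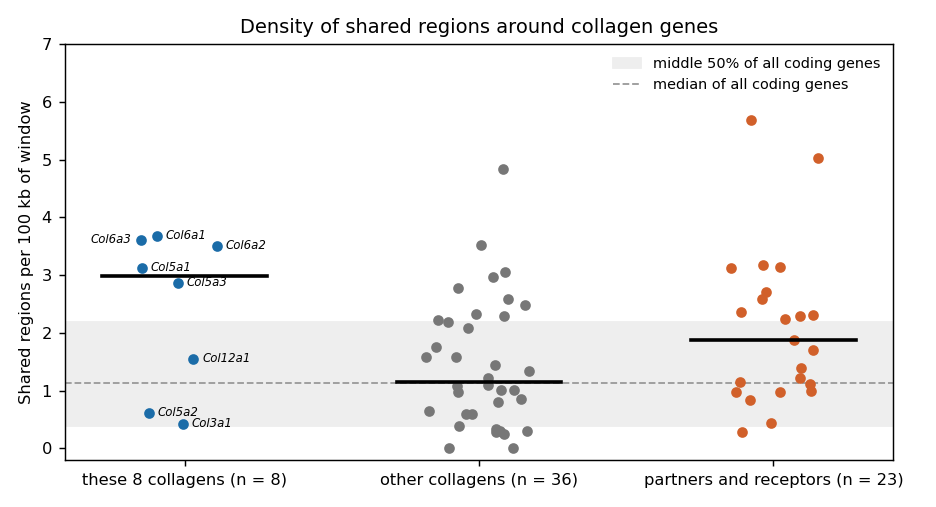
Shared regions per 100 kb of window (vertical axis) for the 8 genes, the 36 other collagen genes and 23 genes of partners and receptors; points are genes, black lines group medians, the grey band the middle 50% of all protein-coding genes (0.38 to 2.18) and the dashed line their median (1.14). Of the 8 genes, Col6a1, Col6a2, Col6a3, Col5a1 and Col5a3 lie above the band, and Col12a1, Col5a2 and Col3a1 within it.

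Genes for proteins that bind collagens were also counted. Of 23 genes for proteoglycans, glycoproteins and receptors, 16 (69.6%) had a shared region inside or within 10 kb, against 52.7% of all protein-coding genes. By kind these were 8 of 9 receptors, 5 of 7 glycoproteins and 3 of 7 proteoglycans. Fbn1, which encodes the microfibril protein fibrillin-1, had 6. Antxr1 and Antxr2, whose products bind collagens including collagen VI, had 5 and 4, and Ddr2, a receptor tyrosine kinase for fibrillar collagens, had 5. Dcn, which encodes the collagen-binding proteoglycan decorin, had none. These counts take no account of gene length. Per 100 kb of window the median of the 23 genes was 1.88, against 1.14 over all protein-coding genes. Fbn1 was at 2.71, Ddr2 at 2.36, Antxr1 at 2.24 and Antxr2 at 1.15. Within 1 kb of a start 5 of the 23 had a shared region (Fn1, Thbs1, Tnc, Itga1 and Itgb1), against 33.1% of all protein-coding genes. Dcn and these 5 were named after their values were seen.

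The cell type could not be checked by expression, since peak lists hold none. Of 7 osteoblast genes, Runx2, Spp1, Sp7 and Col1a1 had a shared region inside or within 10 kb and Alpl, Bglap and Ibsp had none. This share of 57.1% is near that of all protein-coding genes, 52.7%. With 100 kb on either side all 7 had one, against 77.7% of all protein-coding genes. Their median was 2.77 shared regions per 100 kb (range 1.35 to 4.86), near the 2.99 of the 8 collagen genes. The windows of Ibsp and Spp1 overlap.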

How the data were processed

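RUNX2 CUT&Tag was measured in 2 replicates of 1 group. Per the submitters' processing notes, fastp 0.19.6, Bowtie2 and deepTools were used and the build was GRCm38 (mm10), without saying for what. The program that called peaks, with its cut-off and control, is not stated there. Each list the authors deposited holds the chromosome, start, end and width (bp) of every peak of a replicate, with no score, so width replaced the score in the stricter threshold. Depth is unknown.

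Peaks of both lists overlapping by at least 1 bp were merged into shared regions (pandas 2.3.3, with overlaps checked to equal bedtools 2.31.1). The place of a region is the midpoint of its replicate 1 peak. Windows took any overlap with the gene and 100 kb on either side, and links the midpoint inside the gene or within 10 kb. Spans of 49943 genes came from RefSeq GRCm38.p6, chromosomes 1 to 19, X and Y. Transcript starts came from the promoter table, which matched 17492 of 21887 protein-coding genes, and either gene end replaced the start elsewhere. No test was made, since there is 1 group, and Wilson intervals are at the 95% level. The scripts recovered all planted overlaps when tested on simulated data.

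The members and lists were chosen with earlier results of these data known. Named are the 8 members, the 6 other collagen genes and 4 partner genes with the most shared regions within 10 kb (ties by summed peak width; Col16a1, tied with the last of the collagen genes, is named beside them), the 3 other collagen genes nearest in density to the members' median, and genes nearest to a region described. Alternatives were a reciprocal overlap of 50%, wider peaks only, each replicate alone, other distances and other links. No genome sequence was used, so exons, introns and the sequences of distal peaks are not given.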

Additional observations from a re-analysis of the deposited data

How the results depend on the processing

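The main limits are the single group, the unknown depth and the lack of a score or a control. When only the wider peaks, above the median width in each replicate, were kept, the windows held 19 shared regions in place of 45. The median per gene was 2.5 in place of 7.5. Of the remaining peaks in the windows, 70.4% were shared in replicate 1 in place of 73.8%, and 61.3% in replicate 2 in place of 78.9%. Over all protein-coding genes the median per 100 kb fell too, from 1.14 to 0.48. Col5a1 was the 1 gene with a region at its start (20.6% of all protein-coding genes). Within 10 kb, Col5a1, Col5a3, Col6a3 and Col12a1 stayed linked (36.0% of all), and Col6a1 and Col6a2 did not. With 50 kb on either side of the genes the median was 4, and with 10 kb it was 2, with 13 regions in all. With an overlap of at least 50% of the peak, 62.3% of replicate 1 peaks and 61.4% of replicate 2 peaks in the windows were shared. Shares outside the windows are not given for this setting or for the wider peaks. Within 3 kb of a start, 5 of the 8 genes had a region (Col5a3 and Col12a1 were added; 36.3% of all protein-coding genes), and 5 of the 36 other collagen genes in place of 0. Inside genes only, 9 of the 23 partner genes in place of 16 and 30.3% of all protein-coding genes in place of 52.7% had a region. The settings with smaller counts keep fewer peaks, ask for more overlap or take shorter stretches. What part this has in the smaller counts and shares was not tested. Leaving out either replicate gave 57 and 61 peaks in the windows, medians of 8 and 10, and 7 and 6 linked genes, against 60.7% and 60.6% of all protein-coding genes; Col5a2 was added by replicate 2 alone, and Col5a3 at the start (4 of 8, against 38.1%) by replicate 1 alone. Without replicate 1 or without replicate 2, Col12a1 had 10 and 9 peaks in place of 5 shared regions, Col5a2 had 4 and 4 in place of 2, and Col3a1 had 2 and 2 in place of 1. With a reciprocal overlap of 50%, Col3a1 and Col5a2 had no shared region left and Col12a1 had 2, while the windows held 31. Counts were called the same within 1.5-fold. Of 117 alternatives 42 were called moved, and of the 56 for single genes 30 were. Counts and shares in 1 group have no direction that could reverse. No paired analysis was possible because there is a single group.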
